A study of Homo sapiens with 3 samples.

Results

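A375, an established human melanoma cell line, was kept for 24 h in medium conditioned by young adipocytes (the young adipocyte secretome, YA), its poly(A) RNA was sequenced, and it was compared with the same cells in serum-free DMEM (control). A gene was taken into the comparison when its normalised read count averaged at least 20 over the 3 libraries of the series, which kept 14413 of 58037 genes. A gene low in control could thus pass through the library in which it was high. The remaining library came from A375 in old adipocyte secretome (OA), and its values stand beside those of YA below. The YA and OA ratios are taken against the same control library and are therefore not independent of each other.

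The 24 h exposure comes from the description of the series, while the samples' own treatment protocol names a span that reaches beyond it. By the study's methods, the adipocytes were donor preadipocytes differentiated in culture with insulin, dexamethasone, indomethacin and IBMX, then kept in a maintenance medium. They were washed in PBS and left in serum-free DMEM to condition it, so no group held serum, and the melanoma cells were also washed in PBS before exposure. How many donors stood behind the secretome was not given in the sources used here. The secretome was the only labelled difference between the groups, and the hormones or nutrients it held were not measured in these data.

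Fat cells in the skin release lipids, proteins and metabolites to the cells around them. Steroid hormones that reach a cell act through nuclear receptors, of which the glucocorticoid receptor NR3C1 switches on genes such as TSC22D3, PER1 and FKBP5. Shortage of amino acids and other stresses are read by kinases that raise translation of ATF4, a transcription factor whose target genes make, import and charge amino acids, and fatty acids act on a further group of genes through the PPAR receptors.

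The control library totalled 21448195 counts, the YA library 21306558 and the OA library 18089008, and the genes taken into the comparison held 99.7% of the counts of each library. Reads are given below as deposited, with control first. The size factors were 1.06 for control and YA and 0.891 for OA, so that OA reads count for more than those of the other libraries once scaled. Each ratio is the YA count over the control count after division by the size factors, with its 95% Clopper-Pearson interval. There was 1 library per group, so no difference had a replicate check. The intervals cover counting error only, and may understate it because amplified reads are not independent molecules. They compare libraries rather than conditions.

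A gene was called higher or lower when its whole interval lay beyond 1.2-fold. YA-A375 had 869 genes called higher, or 6.03% of those tested, and 640 called lower, or 4.44%. Ratios of at least 2-fold were found for 322 genes higher in YA (2.23%) and 161 lower (1.12%). The remaining 12904 genes, 89.5%, were not called, and the quartiles of all ratios were 0.882 and 1.12. Genes called higher had a median ratio of 1.73 and those called lower a median of 0.638. The lower bound passed 5-fold for 8 genes and 3-fold for 25, and the upper bound showed a loss of more than 3-fold for 7. With 20 reads in control, a gene needed 42 reads in YA to be called higher or 6 to be called lower, against 1301 or 755 for a gene with 1000 reads.

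**Figure D1:**
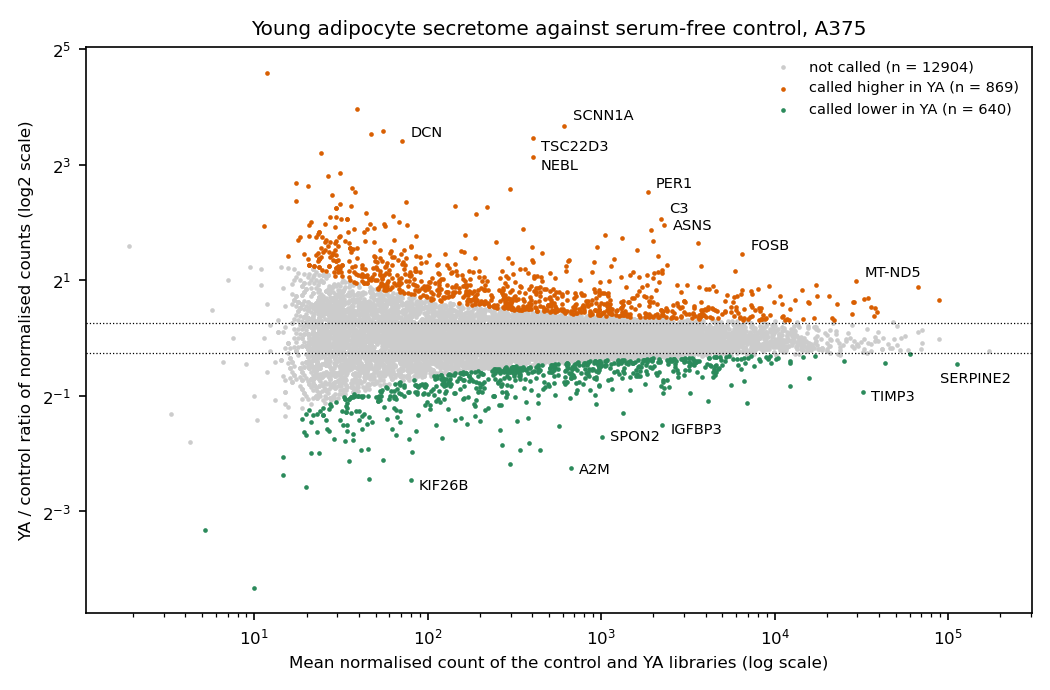
Ratio of the YA to the control normalised count (y axis, log2 scale) against the mean of both (x axis, log scale) for each gene tested. Coloured points are the 869 genes called higher and the 640 called lower, dotted lines mark 1.2-fold, and genes with 0 reads in either library are not drawn. The calls reach smaller ratios as the level rises, and SCNN1A and TSC22D3 stand at the top among genes of middle level.

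The genes with the highest lower bounds of the interval in YA-A375 were SCNN1A and TSC22D3. SCNN1A (ENSG00000111319.12, chr12:6346843-6377730, minus strand), the alpha subunit of the epithelial sodium channel, had 95 reads in control, 1200 in YA and 75 in OA, giving a ratio of 12.7 (10.3 to 15.8). TSC22D3 (ENSG00000157514.16, chrX:107713221-107777342, minus strand), the glucocorticoid-induced leucine zipper protein, had 71, 779 and 49 reads, a ratio of 11 (8.62 to 14.2). For both genes the YA library stood alone, with control and OA close together, and the YA to OA ratio was 13.5 (10.7 to 17.2) for SCNN1A and 13.4 (10.02 to 18.3) for TSC22D3. NEBL, which encodes the actin-binding protein nebulette, followed with 88, 765 and 142 reads and a ratio of 8.72 (6.99 to 11).

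The other genes with the 20 highest lower bounds fell into several kinds. PER1, a repressor of the circadian clock, had 582 reads in control, 3339 in YA and 610 in OA, giving a ratio of 5.75 (5.27 to 6.29). DCN, the matrix proteoglycan decorin, had 13, 138 and 24 reads and a ratio of 10.6 (6.02 to 20.5). ITGA10, a collagen-binding integrin chain, had 876, 3204 and 312 reads and a ratio of 3.67 (3.40 to 3.96), so that YA was the highest and OA the lowest of the libraries. SLCO2A1, a prostaglandin transporter, had 8, 58 and 3 reads. In contrast, the complement component C3 was high in both secretomes, with 908, 3778 and 4772 reads and a YA ratio of 4.17 (3.88 to 4.49).

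The cytokine gene IL32 had 1 read in control, 24 in YA and 65 in OA, which gives a ratio of 24.1 with an interval from 3.93 to 990. Further members of the same 20 had from 5 to 90 reads in control. ADM2, a peptide of the calcitonin family, had 90, 539 and 137 reads (ratio 6.01, 4.80 to 7.60), GDF15, a stress-induced cytokine, had 80, 382 and 194 reads (4.79, 3.75 to 6.17), and the scavenger-receptor glycoprotein DMBT1 had 52, 253 and 67 reads (4.88, 3.61 to 6.71). NUPR1, a small stress-induced chromatin protein, had 8, 92 and 29 reads and a ratio of 11.5 (5.61 to 27.5). NDUFA4L2, a mitochondrial protein known as a hypoxia target, had 26, 132 and 71 reads (5.09, 3.33 to 8.08), the chloride channel gene BEST1 had 7, 49 and 10 (7.02, 3.16 to 18.4), and the sperm calcium channel gene CATSPER2 had 5, 46 and 12 (9.23, 3.68 to 29.8). EIF4A1, an RNA helicase of translation initiation, had 74, 328 and 120 reads (4.45, 3.45 to 5.80), with 48.6% of its exonic bases inside exons of another gene in GENCODE 29. The remaining members were ASNS, described below, and the unnamed loci AC005355.2 with 5, 78 and 38 reads and CH507-42P11.8 with 9, 108 and 23. Some of the 20 genes, SLCO2A1, BEST1 and CATSPER2 among them, passed the expression filter only through their YA reads. For these, being kept and being high in YA are not separate findings. IL32 passed only through its OA reads, so being kept and being high in OA are not separate findings for IL32.

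The lowest upper bounds included 3 secreted proteins that were low in both secretomes. A2M (ENSG00000175899.14, chr12:9067664-9116229, minus strand), a broad protease inhibitor, had 1174 reads in control, 246 in YA and 74 in OA, giving a ratio of 0.210 (0.182 to 0.241). ITIH5, a hyaluronan-binding heavy chain, had 520, 115 and 7 reads and a ratio of 0.222 (0.180 to 0.272). SPON2, the matrix protein spondin 2, had 1636, 498 and 51 reads and a ratio of 0.305 (0.276 to 0.338). These 3 genes were lower in both secretomes, and lower in OA than in YA, with YA to OA ratios of 2.80 (2.15 to 3.68) for A2M, 13.8 (6.5 to 35.2) for ITIH5 and 8.22 (6.16 to 11.2) for SPON2. KIF26B, a kinesin-like protein, showed the same order with 143, 26 and 6 reads, a YA ratio of 0.182 (0.115 to 0.278), as did SLC6A20, a proline transporter, with 95, 22 and 0 reads (0.232, 0.139 to 0.372).

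Several genes were lower in YA and higher in OA than in control. IGFBP5, a secreted IGF-binding protein, had 745 reads in control, 193 in YA and 1904 in OA, giving a YA ratio of 0.260 (0.221 to 0.305). ESM1, the secreted proteoglycan endocan, had 635, 180 and 1800 reads and a ratio of 0.284 (0.240 to 0.336). The growth factor gene FGF5 had 20, 1 and 60 reads, and the membrane protein gene ITM2A had 12, 0 and 81, for which YA was at least 3.99-fold lower than control against a floor of 3 reads. FGF5 and ITM2A passed the expression filter only through their OA reads. For both, being kept and being high in OA are not separate findings. The serpin gene SERPINB7 had 196, 59 and 271 reads (0.302, 0.222 to 0.406). YA stood below both other libraries in each of these genes.

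A further set of low genes in YA carried receptors, channels and enzymes. The inward rectifier potassium channel gene KCNJ2 had 571, 149 and 96 reads (ratio 0.262, 0.217 to 0.314), IL1RL1, the receptor of IL-33, had 443, 123 and 213 (0.278, 0.226 to 0.341), and FLT1, a VEGF receptor, had 417, 138 and 258 (0.332, 0.272 to 0.403). IGFBP3, the main carrier of IGF in blood, had 3511, 1231 and 2243 reads and a ratio of 0.352 (0.329 to 0.375), which was the most abundant of the 20 genes with the lowest upper bounds. The adhesion receptor gene ADGRF1 had 896, 313 and 339 reads (0.350, 0.307 to 0.399). The collagenase gene MMP1 had 82, 15 and 18 reads, the kinase gene BMX 137, 35 and 31, the transcription factor gene NPAS3 36, 6 and 29, the matrix gene VIT 61, 14 and 12, and the ubiquitin ligase gene RNF152 128, 38 and 11. In this group YA and OA did not differ beyond counting error for MMP1, BMX and VIT, whose YA to OA intervals each include 1.

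**Figure D2:**
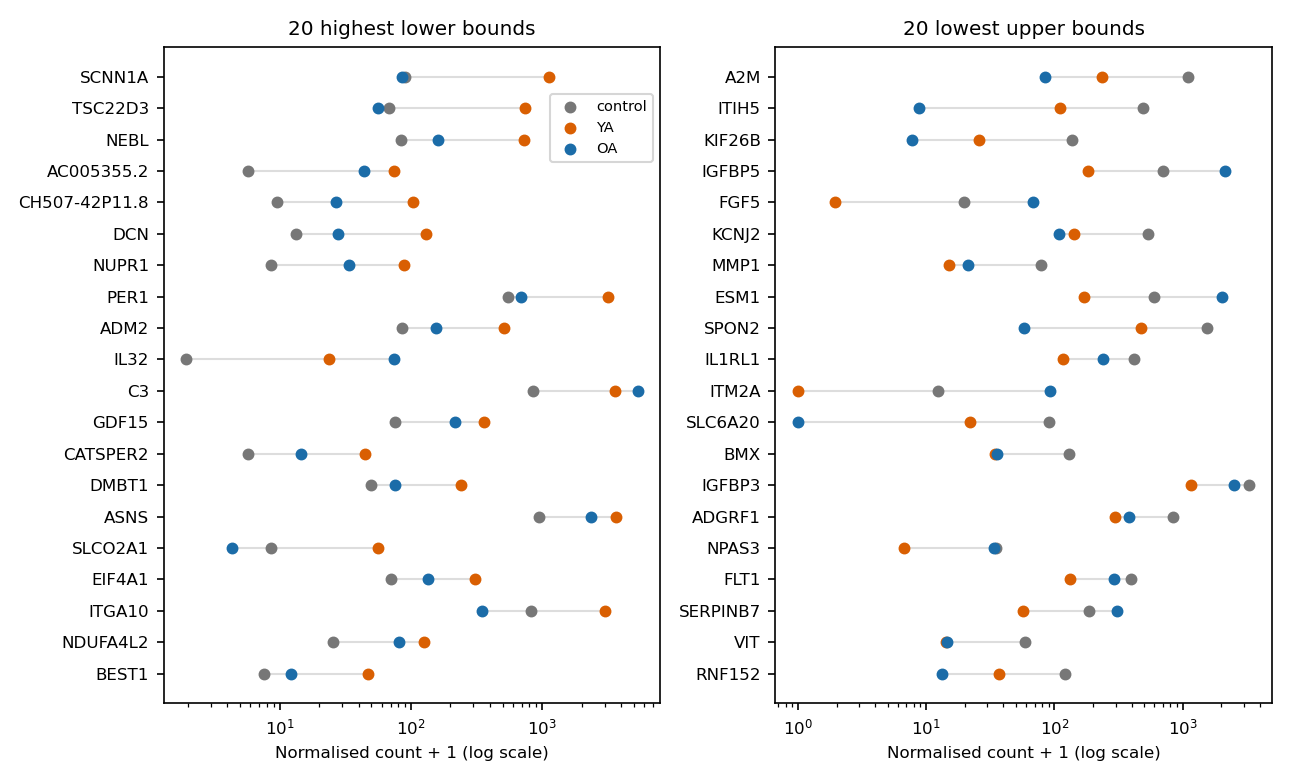
Normalised read count plus 1 (x axis, log scale) in the control, YA and OA libraries, 1 point per library, for the 20 genes with the highest lower bound (left) and the 20 with the lowest upper bound (right) of the YA to control interval. On the left OA lies near control for SCNN1A, TSC22D3 and PER1 but beyond YA for C3 and IL32, and on the right OA lies above control for IGFBP5, ESM1 and FGF5 and below YA for A2M, ITIH5 and SPON2.

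Measured by reads gained, the YA library was led by mitochondrial transcripts. MT-ND4 went from a CPM (counts scaled to a fixed library total) of 2339 in control to 4330 in YA and 2779 in OA, and MT-CO1 from 3389 to 5352 and 3410. Of the 10 largest gains 7 were mitochondrially encoded, and the others were PLEC and AHNAK, giant scaffold proteins of the cytoskeleton and cell cortex, with ratios of 1.44 and 1.55, and the sulfate transporter SLC26A2, with 31255, 45371 and 9869 reads. The largest losses were of SERPINE2, a secreted serpin and one of the most abundant transcripts, which went from a CPM of 6403 to 4706 in YA and 4761 in OA, and of the translation factor EEF1A1 from 9159 to 7905 and 6917. TIMP3, a matrix-bound metalloproteinase inhibitor, had 44773 reads in control, 23326 in YA and 43920 in OA, so YA alone was low, with a ratio of 0.523 (0.514 to 0.531). LOXL4, a collagen cross-linking oxidase, had 20693, 12829 and 5564 reads, and GNE, the first enzyme of sialic acid synthesis, had 16695, 9348 and 7018. The rest of the 10 largest losses were HSPA8, ENO1, PKM, RPS6 and HNRNPA1, of which PKM, RPS6 and HNRNPA1, like EEF1A1, were not called because their ratios lay between 0.860 and 0.876.

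Among 64 gene lists compared, the ATF4 stress genes had the largest share of called members of any list with 20 or more genes tested. Of 30 tested, 21 were called higher and 0 lower, against 6.03% and 4.44% over all genes, and their median log2 ratio was 0.73 against -0.02 for all genes tested. In OA 12 were called higher and 3 lower, against 9.04% and 9.08% of all genes called in OA. These shares of all genes are the background for every list count below. ATF4 itself had 6784 reads in control, 9475 in YA and 7003 in OA, giving a ratio of 1.4 (1.36 to 1.45). ASNS (ENSG00000070669.16, chr7:97852118-97872542, minus strand), which makes asparagine, had 1008, 3881 and 2086 reads and a ratio of 3.86 (3.6 to 4.14), with 44.6% of its exonic bases shared with exons of another gene. NUPR1, TSC22D3, ADM2 and GDF15, given above, also belong to this list, and TSC22D3 is shared with the glucocorticoid list. Members called higher in YA but not in OA included the stress factor ATF3, with 1007, 3207 and 462 reads (3.19, 2.97 to 3.43) and lower in OA than in control, and DDIT4, an inhibitor of mTORC1, with 712, 1686 and 714 reads (2.38, 2.17 to 2.60).

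The C/EBP-ATF composite element, the DNA sequence that ATF4 binds together with a C/EBP partner, was searched as TGATGNAA on both strands in the 250 bases before each RefSeq start site (GRCh38.p14). A window was at hand for 17 of the 21 called ATF4 stress genes, and 5 of these held the motif, or 29.4%. It was also in 3 of 8 called cytosolic tRNA synthetases and in 1 of 5 called amino acid transporters, against 3.14% of all 35116 windows, 2.37% of the genes tested with a window, 5.48% of genes called higher and 3.04% of genes called lower. A match describes the letters and is not evidence of binding. The ATF4 list is made of genes taken as ATF4 targets, so a raised share was built into it and says nothing about YA. List members that were not called were not scored apart. HERPUD1, PLIN4, PLK3 and SEMA3C, called higher in other lists, also held the motif and are not printed. The matches are printed because they lie before the genes with the clearest list, 5′ to 3′ on the strand of the gene, with the motif or its reverse complement in capitals, and where the stretch overlapped an annotated exon only a short one is given. The genes CEBPG, CHAC1, JDP2, IARS and SLC1A5 are named here for their match, after their values were seen.
ASNS, chr7:97872458-97872487, minus strand: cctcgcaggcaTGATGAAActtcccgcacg
ATF3, chr1:212565186-212565253, plus strand: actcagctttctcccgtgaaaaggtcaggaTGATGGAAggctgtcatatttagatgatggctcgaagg
CEBPG, chr19:33374041-33374108, plus strand: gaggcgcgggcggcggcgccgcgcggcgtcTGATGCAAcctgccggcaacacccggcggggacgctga
CHAC1, chr15:40953251-40953280, plus strand: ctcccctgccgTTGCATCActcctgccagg
JDP2, chr14:75427976-75428021, plus strand: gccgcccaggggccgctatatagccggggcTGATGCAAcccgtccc
AARS, chr16:70289675-70289704, minus strand: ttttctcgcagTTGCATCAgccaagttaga
GARS, chr7:30594834-30594863, plus strand: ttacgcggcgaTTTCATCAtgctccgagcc
IARS, chr9:92293698-92293721, minus strand: ttttcagcgcgTTGCATCAcctcc
SLC1A5, chr19:46784893-46784922, minus strand: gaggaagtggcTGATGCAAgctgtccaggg

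Of these genes, CEBPG, a C/EBP family partner, had 583 reads in control, 1279 in YA and 634 in OA (ratio 2.20, 1.99 to 2.43). CHAC1, a glutathione-degrading enzyme, had 211, 630 and 233 (2.99, 2.56 to 3.52), and JDP2, a bZIP factor of the AP-1 family, had 70, 168 and 76 (2.41, 1.81 to 3.23). After scaling, the OA to control ratio was 1.30 for CEBPG, 1.32 for CHAC1 and 1.29 for JDP2, so OA lay between control and YA in all 3.

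Genes of amino acid synthesis, import and charging outside the ATF4 list were partly called higher in YA-A375, and most members of each list were not called. Among 23 serine and one-carbon genes, 7 were called higher and 1 lower, against 6.03% and 4.44% of all genes. Their median log2 ratio was 0.02. PHGDH, the first enzyme of serine synthesis, had 4965 reads in control, 8770 in YA and 5250 in OA (ratio 1.77, 1.71 to 1.83), and PSAT1, the next enzyme, had 3037, 5450 and 4474 (1.80, 1.72 to 1.88). The mitochondrial folate enzymes MTHFD2 and ALDH1L2 had ratios of 1.88 (1.79 to 1.98) and 2.87 (2.66 to 3.10). The member called lower was GLDC, the glycine-cleaving decarboxylase, with 311, 114 and 103 reads (0.368, 0.294 to 0.457). Of the genes named, PHGDH and PSAT1 of serine synthesis were higher in YA and GLDC was lower, while 15 members of the list were not called.

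Of 24 cytosolic aminoacyl-tRNA synthetases, which attach amino acids to their tRNAs, 9 were called higher and 0 lower, and of 20 mitochondrial ones none was called. Over all genes 6.03% were called higher and 4.44% lower. The cytosolic members with the highest bounds were AARS, with 6929, 12842 and 8974 reads (1.86, 1.81 to 1.91), SARS with 3179, 5685 and 3514 (1.79, 1.72 to 1.87), GARS with 5846, 9865 and 6689 (1.69, 1.64 to 1.75) and MARS with 4864, 8001 and 6428 (1.65, 1.59 to 1.71). All 24 lay between 0.814 and 1.86, and the ratios of mitochondrial synthetases lay between 0.784 and 1.10. IARS, named above, had 7097, 10205 and 7262 reads (1.44, 1.4 to 1.49).

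Among 26 amino acid transporters, 6 were called higher and 3 lower, against 6.03% and 4.44% of all genes. SLC7A5 and SLC3A2, which pair to import large neutral amino acids, had ratios of 1.88 (1.84 to 1.92) and 1.87 (1.79 to 1.95). For SLC7A5 the reads were 12723 in control, 23826 in YA and 23181 in OA. Both secretomes stood above control. SLC7A11, the cystine carrier, had 1352, 2541 and 1838 reads (1.89, 1.76 to 2.02), SLC6A9, a glycine carrier, had 338, 733 and 382 (2.18, 1.91 to 2.48), and SLC1A5, a glutamine carrier, had 3165, 4843 and 3799 (1.53, 1.47 to 1.61). The members called lower were the cationic amino acid carrier SLC7A2, with 484, 316 and 363 reads (0.655, 0.566 to 0.756), the glutamate carrier SLC1A1 with 1219, 906 and 341, and the taurine carrier SLC6A6 with 2884, 2216 and 2198. SLC1A1 lost its call under the correction for transcript length and GC content.

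Other arms of the stress response did not move with the ATF4 list. Of 31 genes of the unfolded protein response of the endoplasmic reticulum, 3 were called higher and 2 lower, or 9.68% and 6.45%. These shares lay near the 6.03% and 4.44% of all genes, and the median log2 ratio of the list was -0.06. The sensor gene ERN1 had 206, 367 and 171 reads (1.79, 1.5 to 2.13) and its target XBP1 1004, 1405 and 974 (1.4, 1.29 to 1.52), while HERPUD1, of the degradation machinery, had a ratio of 1.48 (1.39 to 1.59). ERO1B and MANF, of protein folding, were called lower with ratios of 0.623 (0.568 to 0.683) and 0.780 (0.738 to 0.823). Of 25 heat shock genes none was called higher and 4 were called lower, HSPA8, HSPA1A, DNAJA1 and HSPH1. HSPA8, the constitutive cytosolic HSP70, had 53004, 39121 and 48555 reads (0.740, 0.731 to 0.750), and DNAJA1, its co-chaperone, had 5747, 3571 and 4628 (0.623, 0.598 to 0.650). In OA 9 heat shock genes were called higher and 0 lower, against 9.04% and 9.08% of all genes. The call of HSPH1, like that of MANF, was lost when ratios were corrected for transcript length and GC content. None of 46 proteasome subunits was called.

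Of 35 glucocorticoid-responsive genes tested, 16 were called higher and 2 lower, against 6.03% and 4.44% of all genes, with a median log2 ratio of 0.44. In OA, where 9.04% and 9.08% of all genes were called higher and lower, 12 and 12 members were called with a median of 0.19. Besides SCNN1A, TSC22D3 and PER1, FKBP5, a co-chaperone of the glucocorticoid receptor, had 649 reads in control, 2159 in YA and 626 in OA, giving a ratio of 3.34 (3.05 to 3.65). In these 4 genes control and OA differed by no more than 1.25-fold and YA stood apart. ANGPTL4 and MT2A were higher in both secretomes, with 78, 267 and 183 reads for ANGPTL4, an inhibitor of lipoprotein lipase, and 1860, 5790 and 4507 for the metallothionein MT2A. The 2 members called lower were PER2, with 85, 45 and 69 reads (0.531, 0.361 to 0.771), and GLUL, glutamine synthetase, with 418, 292 and 158 (0.701, 0.601 to 0.816). GLUL was not called under the correction for transcript length and GC content. The receptor gene NR3C1 was not called, with 2278, 2169 and 2154 reads and a ratio of 0.955 (0.900 to 1.01).

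A glucocorticoid response element written as the palindrome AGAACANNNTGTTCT was in the 250-base window of none of the 14 called members that have one, and of none of the genes tested. The looser form GNACANNNTGTNC was in 1 of the 14, and in 0.327% of all windows. These counts say only that the letters are not in this stretch. Among 12 genes of sodium transport, 3 were called higher and 0 lower, against 6.03% and 4.44% of all genes. They were SCNN1A, the delta subunit SCNN1D with 26, 62 and 22 reads (2.39, 1.49 to 3.94) and FXYD3, a regulator of the sodium pump, with 1302, 1687 and 437 reads (1.30, 1.21 to 1.4). The beta and gamma channel subunits SCNN1B and SCNN1G had at most 1 read in any library.

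**Figure D3:**
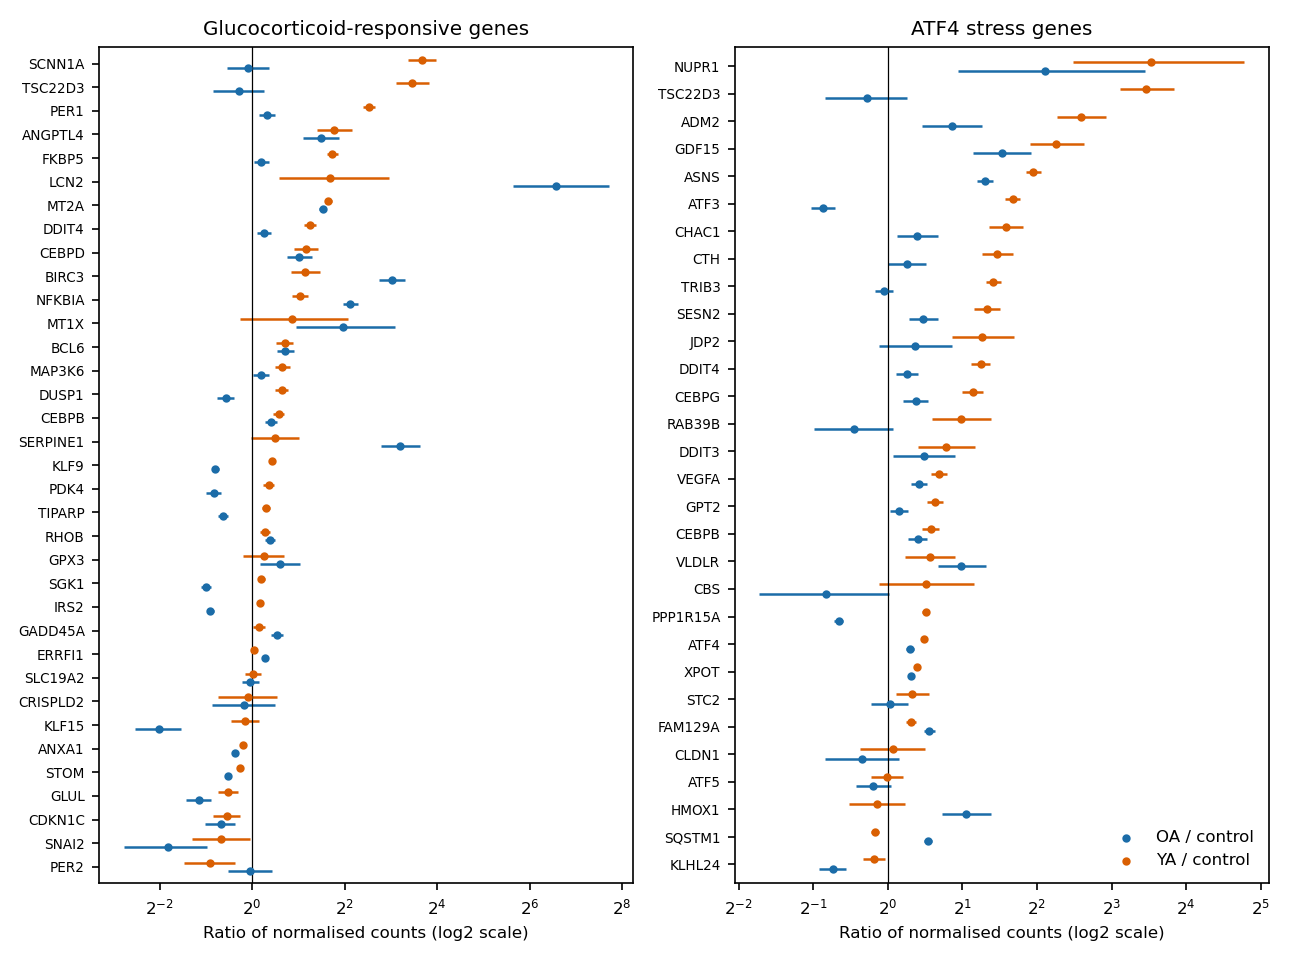
Ratio of the normalised count to control (x axis, log2 scale) for YA and OA with the 95% counting interval as a bar, 1 row per tested gene of the glucocorticoid-responsive list (left) and the ATF4 stress list (right). YA ratios run from 0.531 to 12.7 on the left and from 0.882 to 11.5 on the right, and for SCNN1A, TSC22D3, PER1 and FKBP5 the OA points lie near 1.

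Immediate early genes, transcription factors that cells switch on within minutes of a stimulus, were called higher for 9 of 29 and lower for 2, with a median log2 ratio of 0.20. The shares of all genes were 6.03% and 4.44%. FOSB had 3695 reads in control, 10053 in YA and 902 in OA, giving a ratio of 2.73 (2.63 to 2.83), and KLF4 had 1490, 3552 and 445 (2.39, 2.25 to 2.54). For FOSB, KLF4 and ATF3 the YA library was above control and the OA library below it, and the YA to OA ratio was 9.38 (8.77 to 10.1) for FOSB and 6.72 (6.09 to 7.43) for KLF4. The orphan receptor NR4A1 had 1335, 2910 and 1550 reads (2.19, 2.05 to 2.33). JUN and IER3 were the members called lower, with 1554, 1049 and 788 reads for JUN (0.677, 0.625 to 0.733) and 5247, 3775 and 2637 for IER3 (0.722, 0.692 to 0.753).

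The cAMP and CREB list shares PER1, ATF3, FOSB and NR4A1 with those lists. Of its 26 genes 7 were called higher and 3 lower, against 6.03% and 4.44% of all genes. The 3 lower were RGS2, a regulator of G protein signalling, with 838, 496 and 348 reads (0.594, 0.530 to 0.664), the phosphodiesterase PDE3A with 516, 308 and 92 (0.599, 0.518 to 0.691) and the coactivator CITED2 with 2118, 1616 and 815 (0.765, 0.717 to 0.817). Among MAPK feedback genes, which ERK signalling raises, the calls were mostly lower, with 1 of 21 called higher and 5 lower. SPRY4, an ERK pathway inhibitor, had 7526, 5431 and 1544 reads (0.724, 0.699 to 0.750), and CCND1, cyclin D1, had 14885, 11000 and 14274 (0.741, 0.723 to 0.760). ETV4 was the member called higher, with a ratio of 1.27 (1.22 to 1.32). ETV4 and CITED2 were no longer called once ratios were corrected for transcript length and GC content.

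All 13 mitochondrially encoded mRNAs were called higher in YA-A375, with ratios from 1.37 to 2.24 and a median log2 ratio of 0.70. In OA the median was 0.09, with 3 called higher and 0 lower, against 9.04% and 9.08% of all genes. MT-ND6, the mRNA from the light strand, had 3853 reads in control, 8618 in YA and 4681 in OA (2.24, 2.16 to 2.33), MT-ND5 had 21097, 41639 and 22628 (1.98, 1.95 to 2.01) and MT-CO3 had 34900, 47537 and 30115 (1.37, 1.35 to 1.39). The 13 share 1 polycistronic genome, so they are not separate observations.

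The nuclear genes of the same complexes stayed near control. Of 77 nuclear-encoded respiratory chain subunits, 1 was called higher and 1 lower, 61 had a ratio below 1, and the median log2 ratio was -0.08. The called ones were NDUFV2, with 11, 37 and 21 reads (3.37, 1.69 to 7.33), and NDUFC2, with 64, 32 and 42 (0.501, 0.317 to 0.778), both of low count here. Among 37 genes that maintain and express mitochondrial DNA, 5 were called higher and 0 lower, against 6.03% and 4.44% of all genes. They included the DNA polymerase subunits POLG, with 1015, 1430 and 1171 reads (1.41, 1.30 to 1.53), and POLG2 with 357, 518 and 325 (1.46, 1.27 to 1.67), the matrix protease LONP1 with 4617, 6373 and 4823 (1.38, 1.33 to 1.44) and the coactivator PPARGC1B with 157, 244 and 310 (1.56, 1.27 to 1.92). Of 79 cytosolic ribosomal protein genes, 73 had a ratio below 1, with a median log2 ratio of -0.14, but 1 was called higher and 2 lower.

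The study addressed the uptake of adipocyte lipids, phosphatidylcholine among them, and their oxidation in melanoma cells. Among 43 phosphatidylcholine metabolism genes, 2 were called higher (4.65%) and 4 lower (9.30%), against 6.03% and 4.44% of all genes. Their median log2 ratio was -0.02. PCYT1A, which catalyses the rate-limiting step of the pathway, had 1155, 1081 and 891 reads (0.939, 0.863 to 1.02), and the choline kinase CHKA had 358, 355 and 199 (0.995, 0.856 to 1.16). The members called higher were phospholipases, PLA2G6 with 118, 220 and 103 reads (1.87, 1.49 to 2.36) and PNPLA7 with 66, 111 and 43 (1.69, 1.23 to 2.32). Those called lower were the acyltransferases LPCAT2, with 1738, 1140 and 1047 reads (0.658, 0.610 to 0.709), and MBOAT2, with 775, 575 and 758 (0.744, 0.667 to 0.830), the choline transporter SLC44A1, with 4224, 3051 and 3418 (0.724, 0.691 to 0.759), and LYPD1, with 107, 39 and 133 (0.366, 0.247 to 0.532). Under the correction for transcript length and GC content the calls of PNPLA7 and MBOAT2 were lost. LYPD1 was on the list although it is a surface protein of the Ly6 family with no known step in this pathway, and 48.9% of its exonic bases lie in exons of another gene.

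Of 30 genes for fatty acid uptake and binding, 7 were called higher and 1 lower, against 6.03% and 4.44% of all genes. LPL, lipoprotein lipase, had 353 reads in control, 583 in YA and 30 in OA, giving a YA ratio of 1.66 (1.45 to 1.90) and a YA to OA ratio of 16.4 (11.3 to 24.5). LIPE, hormone-sensitive lipase, had 79, 153 and 67 reads (1.94, 1.47 to 2.58), the acyl-CoA synthetase gene SLC27A6 had 5, 19 and 46 (3.81, 1.38 to 13.1), and the lipoprotein receptor gene LRP1 had 3798, 5400 and 3754 (1.43, 1.37 to 1.49). SLC27A6 was kept by the filter only through its OA reads. The lysophosphatidic acid receptor gene LPAR1 was the member called lower, with 121, 63 and 55 reads (0.522, 0.379 to 0.714). CD36, a fatty acid carrier, had 1, 2 and 0 reads, under the floor of 3 reads. FABP4, a fatty acid-binding protein of adipocytes, had 16, 15 and 2 reads, close together in control and YA. It did not pass the expression filter and was not tested. Even at 20 control reads a call needed 42 reads in YA, or as few as 6.

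None of 39 fatty acid oxidation genes was called higher and 1 was called lower, against 6.03% and 4.44% of all genes. CPT1A, which admits long-chain fatty acids to mitochondria, had 2214, 2205 and 1417 reads, a ratio of 0.999 (0.941 to 1.06). The member called lower was AMACR, a racemase of branched-chain fatty acids, with 152, 85 and 219 reads (0.561, 0.425 to 0.736). The list ran from 0.561 to 1.38.

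PPAR-responsive and lipid droplet genes were called higher for 6 of 30 and lower for 1, against 6.03% and 4.44% of all genes. ANGPTL4 had a ratio of 3.43 (2.66 to 4.48), TXNIP, an inhibitor of glucose uptake, had 706, 1813 and 939 reads (2.58, 2.36 to 2.81), and the droplet coat protein gene PLIN4 had 284, 579 and 321 (2.04, 1.77 to 2.37). CIDEC, which fuses lipid droplets, had 6, 31 and 36 reads (5.18, 2.13 to 15.2). RXRG, a partner receptor of the PPARs, was called lower with 708, 487 and 16 reads (0.690, 0.613 to 0.775). The receptors themselves were not called, with ratios of 0.813 (0.710 to 0.930) for PPARA, 1.17 (1.03 to 1.34) for PPARD and 1.23 (1.15 to 1.31) for PPARG.

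Sterol and fatty acid synthesis lay near control in YA. Of 29 cholesterol synthesis genes 2 were called higher and 0 lower, among them the sterol reductase gene TM7SF2 with 109, 188 and 68 reads (1.73, 1.36 to 2.21). In OA none was called higher and 19 were called lower, against 9.04% and 9.08% of all genes. FASN, fatty acid synthase, had 34430, 44821 and 25680 reads (1.31, 1.29 to 1.32) and with MID1IP1, a regulator of fatty acid synthesis, at 1.35 (1.21 to 1.5) made up the 2 called members of 24 fatty acid synthesis genes. Both lost their calls under the correction for transcript length and GC content. None of 16 cholesterol efflux genes was called. In the list of 31 sphingosine-1-phosphate and ceramide genes, SPHK1, which makes sphingosine-1-phosphate, was the 1 called gene. It had 147, 80 and 197 reads (0.546, 0.410 to 0.722), lower in YA and higher in OA than in control.

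**Figure D4:**
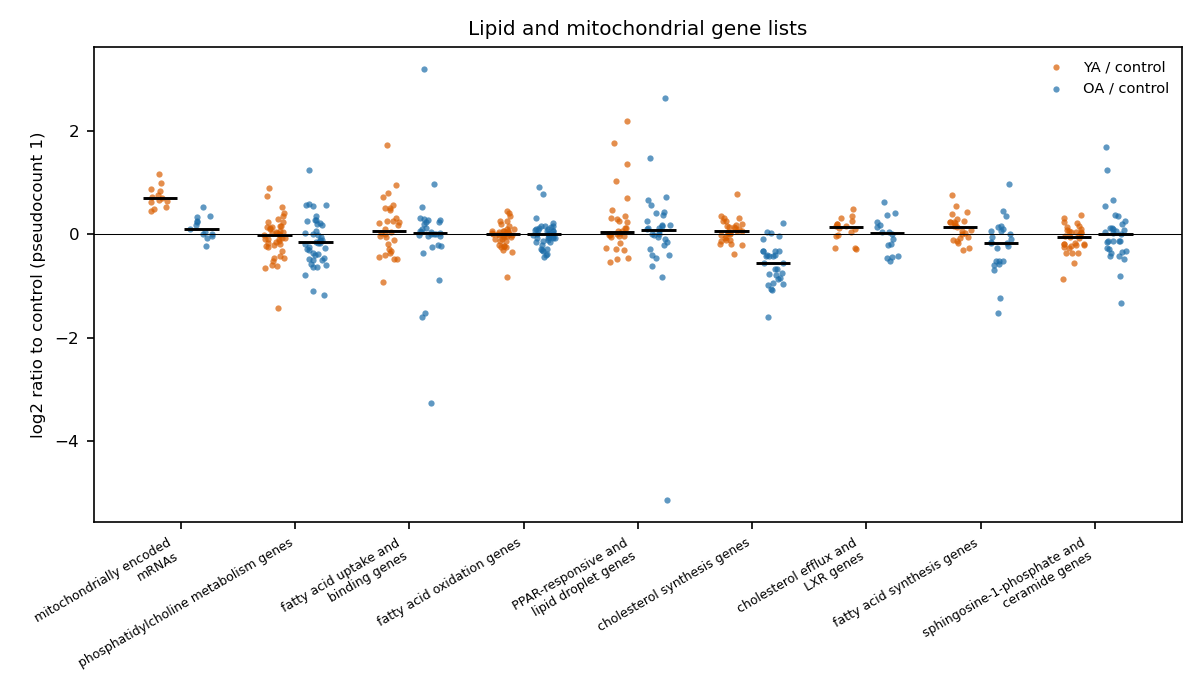
log2 ratio to control with a pseudocount of 1 (y axis) for each tested gene of 9 lists (x axis), YA in orange and OA in blue, with the median of each list as a black line. The mitochondrially encoded mRNAs are the 1 list whose YA points all lie above 0, and the cholesterol synthesis genes have medians of 0.07 in YA and -0.54 in OA.

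The PI3K, AKT, mTOR and FOXO core genes, another pathway the study addressed, had 1 of 46 called higher and 2 lower, against 6.03% and 4.44% of all genes. PIK3CA had 1045, 1007 and 787 reads (0.967, 0.886 to 1.05), AKT1 2156, 2039 and 1731 (0.949, 0.892 to 1.01) and AKT2 3859, 4033 and 3317 (1.05, 1.00 to 1.10). The adaptor gene IRS1 was called lower, with 1316, 750 and 2104 reads (0.572, 0.522 to 0.626), as was DEPTOR, an inhibitor of mTOR, with 347, 232 and 60 (0.671, 0.565 to 0.794). The member called higher was the transcription factor KLF6, with 3471, 4510 and 1539 reads (1.30, 1.25 to 1.36). Transcript levels do not report the phosphorylation state of these kinases.

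BCL2, the founding inhibitor of apoptosis of its family, had 308 reads in control, 288 in YA and 260 in OA, giving a ratio of 0.938 (0.796 to 1.10). Of 23 tested genes of its family list, 3 were called higher and 1 lower. MCL1 had 13031, 20067 and 12102 reads (1.54, 1.51 to 1.58) and BCL2L1 1136, 1643 and 899 (1.45, 1.34 to 1.57). BIRC3, which was on the list but belongs to another protein family, had 130, 288 and 886 (2.22, 1.80 to 2.75). All 3 inhibit cell death. The pro-apoptotic BMF was called lower with 169, 95 and 33 reads (0.564, 0.434 to 0.729). The lowest ratio of the list, 0.401, belonged to a gene that was not called. IL6 had 5, 10 and 65 reads (2.01, 0.625 to 7.48) and was not called. At this depth only a larger difference could be called, as it was for SLC27A6 with 5 and 19 reads in control and YA. IL6 was kept by the filter only through its OA reads.

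NF-kB targets were called higher for 11 of 38 and lower for 2 in YA, against 6.03% and 4.44% of all genes, with a median log2 ratio of 0.31. In OA 32 and 2 were called, against 9.04% and 9.08% of all genes, with a median of 1.47. NFKBIA, the pathway's own inhibitor, had 376, 768 and 1379 reads (2.05, 1.81 to 2.32), and the chemokine gene CXCL2 had 43, 127 and 337 (2.96, 2.08 to 4.29). C3, IL32 and BIRC3, given above, belong to this list, and YA lay between control and OA in all 5 genes. Of these, IL32 was kept by the filter only through its OA reads. TRAF1, a receptor adaptor, was called lower in YA with 835, 479 and 276 reads (0.575, 0.513 to 0.645), as was IER3. Of 39 interferon-stimulated genes 1 was called higher and 4 lower, among them DDX58, the RNA sensor RIG-I, with 177, 93 and 193 reads (0.527, 0.406 to 0.681).

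**Figure D5:**
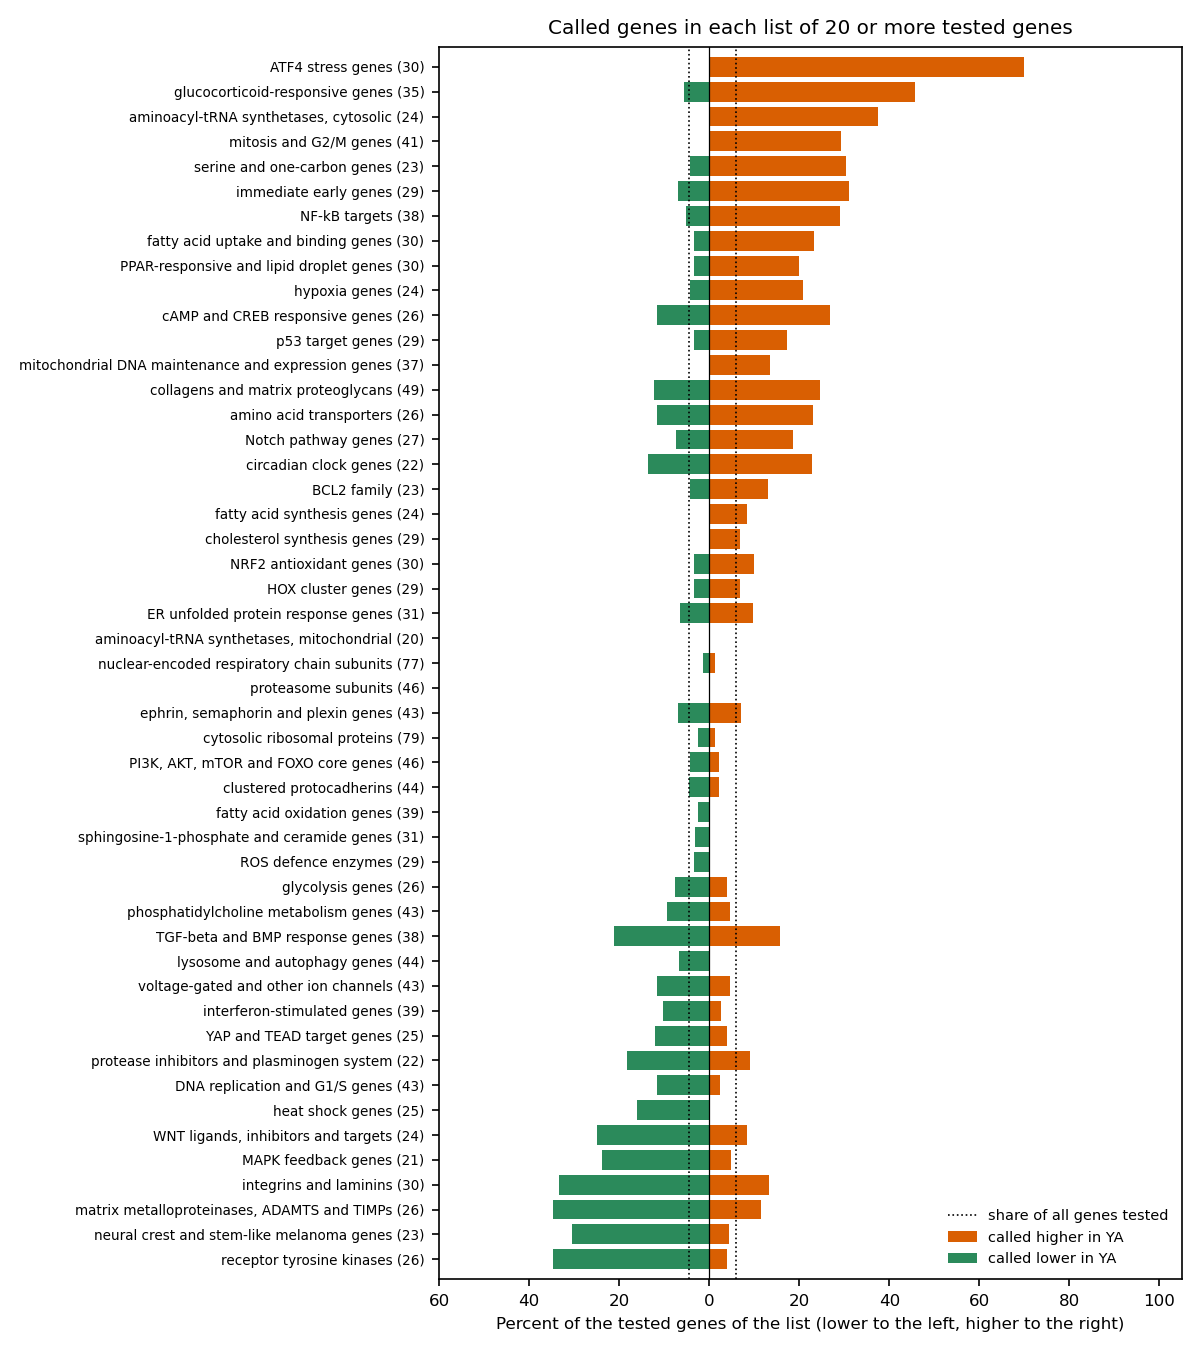
Percent of the tested genes of each list (y axis, number tested in brackets) that were called higher in YA (right, orange) or lower in YA (left, green), with dotted lines at the 6.03% and 4.44% of all genes tested. Lists with 20 or more tested genes are drawn, and they run from the ATF4 stress genes with 70% called higher to the receptor tyrosine kinases with 34.6% called lower.

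Growth factor and receptor genes were called lower more than higher in YA-A375. Of 11 tested genes on the list of FGF ligands and receptors 6 were called lower and 0 higher, with a median log2 ratio of -0.59. Over all genes 4.44% were called lower and 6.03% higher. Besides FGF5 the lower genes included FGF12, with 342, 171 and 167 reads (0.501, 0.415 to 0.604), and FGF13, with 265, 154 and 312 (0.583, 0.475 to 0.714). FGF5 was kept by the filter only through its OA reads. FGF12 and FGF13 are intracellular members of the family and not secreted ligands. The FGF carrier FGFBP1 was also lower, with 346, 208 and 66 (0.603, 0.505 to 0.718). Of 26 receptor tyrosine kinases 9 were called lower and 1 higher. PDGFRA had 76, 20 and 51 reads (0.264, 0.153 to 0.437), the ephrin receptor EPHA7 had 680, 382 and 398 (0.563, 0.496 to 0.640) and EPHA3 had 2183, 1373 and 1083 (0.631, 0.589 to 0.675), while the collagen receptor DDR2 was the member called higher with 5556, 7448 and 3889 (1.34, 1.30 to 1.39). In the IGF list of 17 genes, IGFBP4 and PAPPA, the protease that cleaves it, were called higher with ratios of 1.75 (1.70 to 1.81) and 2.05 (1.44 to 2.94), and IGFBP3, IGFBP5, IRS1 and STC1, an inhibitor of PAPPA, were called lower.

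Matrix genes split by kind. Of 49 collagens and matrix proteoglycans 12 were called higher and 6 lower, against 6.03% and 4.44% of all genes. GPC1, a cell-surface glypican, had 1274, 2131 and 1050 reads (1.68, 1.56 to 1.80) and COL6A3 had 145, 302 and 886 (2.09, 1.71 to 2.56), whereas COL8A1 had 454, 223 and 216 (0.493, 0.418 to 0.580) and COL13A1 751 reads in YA against 1237 in control and 1451 in OA (0.609, 0.555 to 0.667). FBN2, a microfibril protein, had 18, 46 and 5 reads (2.56, 1.46 to 4.70), and SDC2, a syndecan, had 910, 571 and 194 (0.629, 0.566 to 0.7).

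Of 30 integrins and laminins 4 were called higher and 10 lower, against 6.03% and 4.44% of all genes. Apart from ITGA10, the higher ones included ITGA5, the fibronectin receptor chain, with 3486, 4943 and 6187 reads (1.42, 1.36 to 1.49), and LAMA5 with 5330, 7437 and 11279 (1.4, 1.35 to 1.45). Among the lower were the collagen-binding ITGA1, with 3175, 1632 and 5209 reads (0.516, 0.485 to 0.547), ITGA9 with 950, 460 and 34 (0.486, 0.434 to 0.543) and ITGA11 with 62, 23 and 6 (0.372, 0.220 to 0.609). LAMA5 lost its call under the correction for transcript length and GC content. ITGA1 and ITGA10 bind collagens alike, and in YA one was lower and the other higher than in both other libraries. Of 26 metalloproteinases and their inhibitors 9 were called lower and 3 higher. MMP2, a gelatinase, had 8897, 5307 and 6534 reads (0.598, 0.578 to 0.619), while the higher ones were ADAMTS7, with 324, 640 and 179 (1.98, 1.73 to 2.27), ADAMTS13, with 53, 112 and 24 (2.12, 1.52 to 3.00), and MMP19, with 163, 288 and 98 (1.77, 1.46 to 2.16).

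Morphogen pathways had calls in both directions. Of 38 TGF-beta and BMP response genes 6 were called higher and 8 lower, against 6.03% and 4.44% of all genes. The BMP targets ID1 and ID3 had 745, 1319 and 2075 reads (1.78, 1.62 to 1.95) and 161, 593 and 835 reads (3.69, 3.10 to 4.42), while ID4 had 144, 76 and 12 (0.529, 0.396 to 0.704). The ligand BMP4 had 177, 91 and 190 (0.516, 0.396 to 0.668), and the ligand-trapping inhibitors FST, with 4558, 2365 and 1144 (0.520, 0.495 to 0.547), and NOG, with 104, 43 and 22 (0.415, 0.284 to 0.597), were both lower. Of 24 WNT genes 6 were called lower, among them the receptors FZD1, FZD7 and FZD8 with ratios of 0.543, 0.535 and 0.639, and 2 higher, the transcription factors TCF7L2 and LEF1 with ratios of 1.49 (1.41 to 1.57) and 1.31 (1.2 to 1.43). LEF1 was not called under the correction for transcript length and GC content. In the Notch list of 27 genes 5 were called higher and 2 lower, and the target HES1 had 1593, 2446 and 333 reads (1.54, 1.45 to 1.64).

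Cell cycle genes differed by phase. Of 41 mitosis and G2/M genes 12 were called higher and 0 lower, with a median log2 ratio of 0.24 (27 and 0 in OA, with a median of 0.43). Of 43 DNA replication and G1/S genes 1 was called higher and 5 lower, with a median of -0.15 (1 and 0 in OA, with a median of 0.17). Over all genes the shares called higher and lower were 6.03% and 4.44% in YA and 9.04% and 9.08% in OA. MKI67, a marker of cycling cells, had 10708, 15149 and 12141 reads (1.42, 1.38 to 1.45), CDC20, an activator of the anaphase-promoting complex, had 3389, 4741 and 5890 (1.4, 1.34 to 1.47), CDC25B had 4819, 6971 and 4724 (1.45, 1.4 to 1.51) and the kinesin KIF2C had 2131, 2953 and 2875 (1.39, 1.31 to 1.47). Among replication genes, the origin licensing factor CDC6 had 2187, 1688 and 1791 reads (0.774, 0.726 to 0.825) and UHRF1 had 3618, 2819 and 3534 (0.781, 0.744 to 0.821), while the polymerase gene POLE was higher with 1962, 2525 and 1791 (1.29, 1.22 to 1.37). No called member of either list reached 1.5-fold, and CDC6 and POLE lost their calls under the correction for transcript length and GC content.

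Clock genes were called higher for 5 of 22 and lower for 3, against 6.03% and 4.44% of all genes. NFIL3 had 171, 446 and 190 reads (2.62, 2.19 to 3.14) and ARNTL, the activator BMAL1, had 200, 411 and 262 (2.06, 1.74 to 2.45), next to PER1 with 5.75. The repressors PER3, with 74, 27 and 104 reads (0.366, 0.226 to 0.576), PER2 and CRY1, with 667, 382 and 393 (0.574, 0.505 to 0.652), were called lower. Collection times of the cultures were not given in the sources used here.

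The melanoma label was checked against lineage genes. MITF, the master regulator of melanocytes, had 1221 reads in control, 764 in YA and 881 in OA, giving a YA ratio of 0.628 (0.573 to 0.688). SOX10 and TRPM1 had 0 reads in every library, TYR had 2, 0 and 0, DCT 2, 1 and 2, and MLANA 22, 18 and 16, so several defining genes of the lineage were at or near the floor of 3 reads. The 30 lineage markers together summed to 21633 reads in control, 21083 in YA and 13555 in OA. S100B, with 843, 591 and 550 reads, and EDNRB, with 661, 440 and 366, were also called lower, and the melanocortin receptor gene MC1R was called higher with 111, 185 and 129 (1.67, 1.31 to 2.13). Under the correction for transcript length and GC content S100B was no longer called. Of 23 neural crest and stem-like melanoma genes 7 were called lower and 1 higher, led by PRRX1 with 3154, 1728 and 2763 reads (0.550, 0.518 to 0.583), TFAP2B with 3177, 1913 and 132 (0.604, 0.570 to 0.639) and SOX9 with 422, 253 and 355 (0.601, 0.512 to 0.704). SNAI1 was the member called higher, with a ratio of 1.38 (1.23 to 1.54).

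Markers of cells that could have come with the secretome were summed as well. The 16 adipocyte markers had 2425 reads in control, 3423 in YA and 2059 in OA, most of them from PPARG with 1608, 1964 and 1530. RETN, ADIRF, LEP and CIDEA had 0 reads in every library and ADIPOQ had 1, 0 and 0, and in all 6 of the 16 markers were at or under the floor of 3 reads in every library. FABP4 had 16, 15 and 2 reads. All 7 adipocyte markers tested had a ratio above 1 in YA, and 4 were called higher, PLIN4, LPL, LIPE and CIDEC. The 16 fibroblast and stromal markers summed to 1044, 1417 and 1528 reads. DCN and COL6A3 were called higher and PDGFRA lower, while DPT had 0 reads in every library, COL1A2 had 1, 1 and 2 and COL3A1 0, 1 and 1. The count of DPT is likewise uncertain, with 54.6% of its exonic bases in exons of another gene. The part of other cells in the values of DCN, PLIN4, LPL, LIPE, CIDEC and COL6A3 was not tested beyond these sums. Markers of leukocytes summed to 191, 187 and 125 reads, of endothelium to 298, 291 and 118 and of keratinocytes to 1453, 1324 and 1529. Only 1, 3 and 3 of these markers were tested, and none was called in YA. In OA 2 endothelial markers were called lower and 1 keratinocyte marker higher, against 9.08% and 9.04% of all genes.

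The calls were unevenly spread over kinds of gene. Protein-coding genes were called higher in 5.50% and lower in 4.59% of cases, lincRNAs in 12% and 2.63%, and unprocessed pseudogenes in 21.7% and 1.67%. Processed pseudogenes went the other way, with 1.25% higher and 7.47% lower and a median log2 ratio of -0.26. By GC content of the longest transcript, the share called higher ran from 2.64% at the lowest GC content to 10.3% at the highest, with the genes in 5 equal bins, and the share called lower from 4.45% to 1.91%. Median log2 ratios ran from -0.07 to 0.07 over those bins. A correction of the ratios for transcript length and GC content ended 25 of the 261 calls of named genes. Whether composition of the libraries or of the cells stood behind it was not tested.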

How the data were processed

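Raw gene counts were deposited for 3 A375 libraries (control, YA, OA). According to the submitters' processing notes the authors used STAR 2.5.1b, featureCounts, R 3.6.1 and the hg38 genome to make these counts. The annotation release and strand setting were not given in the sources used here, so overlapping and antisense genes are uncertain.

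Counts were divided by DESeq2 1.42.0 median-of-ratios size factors (1.06, 1.06 and 0.891) and genes with a mean of at least 20 were kept. Ratios carry 95% Clopper-Pearson intervals from scipy 1.17.1. Their code was tested on simulated Poisson counts, the model the intervals assume, so that test does not measure the spread of these libraries. List medians use log2 with a pseudocount of 1, and the floor is 3 reads. With 1 library per group no test was made. Positions, transcript GC content and exon overlap come from GENCODE 29, promoter sequences from RefSeq. Named genes were those with the 20 highest lower and 20 lowest upper bounds, the 10 largest CPM gains and losses, up to 4 called genes per list and direction, and a set of fixed genes. Genes and lists were chosen with earlier results of these data known. TMM (edgeR 4.0.16), total-count scaling, other filters and pseudocounts, a 1.5-fold threshold and a length and GC correction were tried as alternatives. The results of 2 genes are not reported here.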

Additional observations from a re-analysis of the deposited data

How the results depend on the processing

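No paired analysis was possible because each group had 1 library, and no library could be left out. Depth limits calls of genes with few reads, and no alternative tried gives an estimate of the spread between cultures. Requiring the whole interval beyond 1.5-fold left 300 genes higher and 148 lower in YA. Differences of 2-fold or more were counted for 6089 genes above and 5190 below control with no expression filter, and for 91 and 44 at a mean of at least 100. Scaling by TMM gave 858 genes called higher and 647 lower, and total-count scaling 884 and 623. With the mean over the members in place of the median, the log2 ratio was 0.47 for sodium channel and pump genes, 0.32 for immediate early genes, 0.24 for cytosolic tRNA synthetases, -0.22 for heat shock genes, 0.73 for mitochondrially encoded mRNAs, 0.23 for PPAR and lipid droplet genes and -0.18 for the IGF axis. With the length and GC correction it was 0.86 for mitochondrially encoded mRNAs and -0.084 for ribosomal proteins. Of 261 named genes with a call, 25 lost it under that correction (40 left their counting interval), 1 under TMM, 1 under total-count scaling and 0 under a pseudocount of 5, and none changed direction in these 4. The causes were not tested.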

Other observations

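The shares of all genes called in YA, 6.03% higher and 4.44% lower, are the background for the counts below. Among 29 p53 target genes 5 were called higher and 1 lower, and PHLDA3, a p53-induced inhibitor of AKT, had 1509 reads in control, 3264 in YA and 1788 in OA. Of 24 hypoxia genes 5 were called higher and 1 lower. CA9, a carbonic anhydrase of hypoxic cells, had 44, 114 and 97 reads, and VEGFA had 1258, 2016 and 1411. Among 30 NRF2 antioxidant genes 3 were called higher and 1 lower, and NQO1, a quinone reductase, was the lower one with 9341, 6688 and 4263 reads. SLC30A1, a zinc exporter, had 323, 493 and 874 reads.

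Of 43 ion channel genes 2 were called higher and 5 lower, and ANO1, a calcium-activated chloride channel, had 1319, 742 and 1213 reads, so YA was the low library. Of 44 lysosome and autophagy genes none was called higher and 3 were called lower, among them the cathepsin CTSK with 277, 160 and 29 reads. None of 19 MHC class I presentation genes was called. Of 44 clustered protocadherins 1 was called higher and 2 lower in YA, against 1 and 21 in OA, where 9.04% and 9.08% of all genes were called. Of 17 tested histone genes HIST1H1C, a linker histone, was the 1 called, with 223, 141 and 553 reads.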
